A study of Mus musculus with 10 samples.

Results

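The AP-1 and immediate early transcription factors were taken as a list of 10 genes (Fos, Fosb, Fosl1, Fosl2, Jun, Junb, Jund, Atf3, Egr1 and Ier2), whose rows were read from a table of 17864 genes by their Ensembl identifiers. Counts of 9 of the 10 were analysed, and all 9 passed the filter on low counts that kept 14816 genes. Jund was not analysed here. RNA-seq was performed on intact tumors of the murine mammary carcinoma line 4T1, and the question was how the loss of TAZ from the tumor cells changed the RNA of the tumor. Both groups carried Cas9: 5 tumors came from cells with a control guide RNA (sgCon) and 5 from cells whose guide RNA targets Wwtr1, which encodes TAZ (sgTaz). Per the methods, 100000 cells were injected into mammary fat pad number 4 of female mice 6 to 8 weeks old. The methods name SCID and BALB/c hosts, and the labels do not say which of them carried these tumors. Per the paper, SCID mice have no functional adaptive immune system. RNA of T cell markers was found in every tumor, at levels given below, and the host was not tested. The labels number the tumors from 1 to 5 and do not state that each came from a separate mouse, so the p-values measure the spread between these tumors.

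AP-1 is a dimer of basic leucine zipper (bZIP) proteins. JUN proteins pair with each other or with FOS proteins, ATF3 pairs with JUN proteins, and the dimer binds a short DNA element in promoters and enhancers. Many genes of AP-1 subunits, with Egr1 and Ier2, are immediate early genes, transcribed within minutes of a growth factor, stress or cytokine signal without new protein synthesis, from transcripts that are quickly degraded. TAZ and its relative YAP have no DNA-binding domain, act through TEAD factors, and are found with AP-1 at many enhancers in epithelial tumor cells.

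Total counts were 14753922 to 19595821 in sgCon tumors and 12185383 to 18395558 in sgTaz tumors. Values below are CPM, each count relative to the library total, scaled by TMM library factors, and log2 fold changes are sgTaz minus sgCon from edgeR's quasi-likelihood test. Wwtr1 itself stood at 192, 181, 115, 171 and 156 CPM in sgCon tumors 1 to 5 and at 86.6, 104, 110, 139 and 102 CPM in sgTaz tumors 1 to 5. All sgCon tumors exceeded 4 of the 5 sgTaz tumors, while sgTaz tumor 4 was above sgCon tumor 3. The log2 fold change was -0.59 ± 0.15 (SE), with an edgeR adjusted p of 0.096 and a DESeq2 adjusted p of 0.0151. A guide cut alters the DNA, and this mRNA level does not measure the TAZ protein. Per the paper, the TAZ knockdown in 4T1 cells was seen by immunoblot, which was made on cells and not on these tumors. The epithelial tumor cell markers did not reach 0 in any tumor and summed to 2270 to 5140 CPM in sgCon and 1640 to 3980 CPM in sgTaz tumors. A pair of libraries stood apart in RNA of lymph node stroma and high endothelium: sgCon tumor 3 held 732 CPM and sgTaz tumor 5 held 379 CPM of these markers, against 15.2 to 247 CPM in the others. In bulk tumors, fewer cells of a type and less RNA per cell cannot be told apart.

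None of the 9 genes passed the edgeR test after adjustment over all genes. Across the whole table that test called 1 of 14816 genes, or 0.00675%. At an unadjusted p below 0.05, Junb and Ier2 were lower and Jun was higher in sgTaz tumors, 2 and 1 of 9 genes, while 11.9% of all genes tested were lower and 9.86% were higher by the same rule. DESeq2 called 1 of the 9 lower, Junb, and none higher, with 3.47% of all genes lower and 3.28% higher. Limma-voom with quality weights called Junb and Ier2 lower and none higher, with 5.8% of all genes lower and 4.63% higher. None of the 9 genes had groups that did not overlap, against 2.13% of all genes fully lower and 2.44% fully higher. The median log2 fold change was 0.07 over the 9 genes and -0.019 over all genes tested. Over 9 genes, 1 or 2 calls more than these shares would give are no result about the list. Without sgCon tumor 3 the log2 fold changes of Junb, Ier2 and Jun were -0.59, -0.36 and 0.23, and without sgTaz tumor 5 they were -0.50, -0.31 and 0.27.

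**Figure D1:**
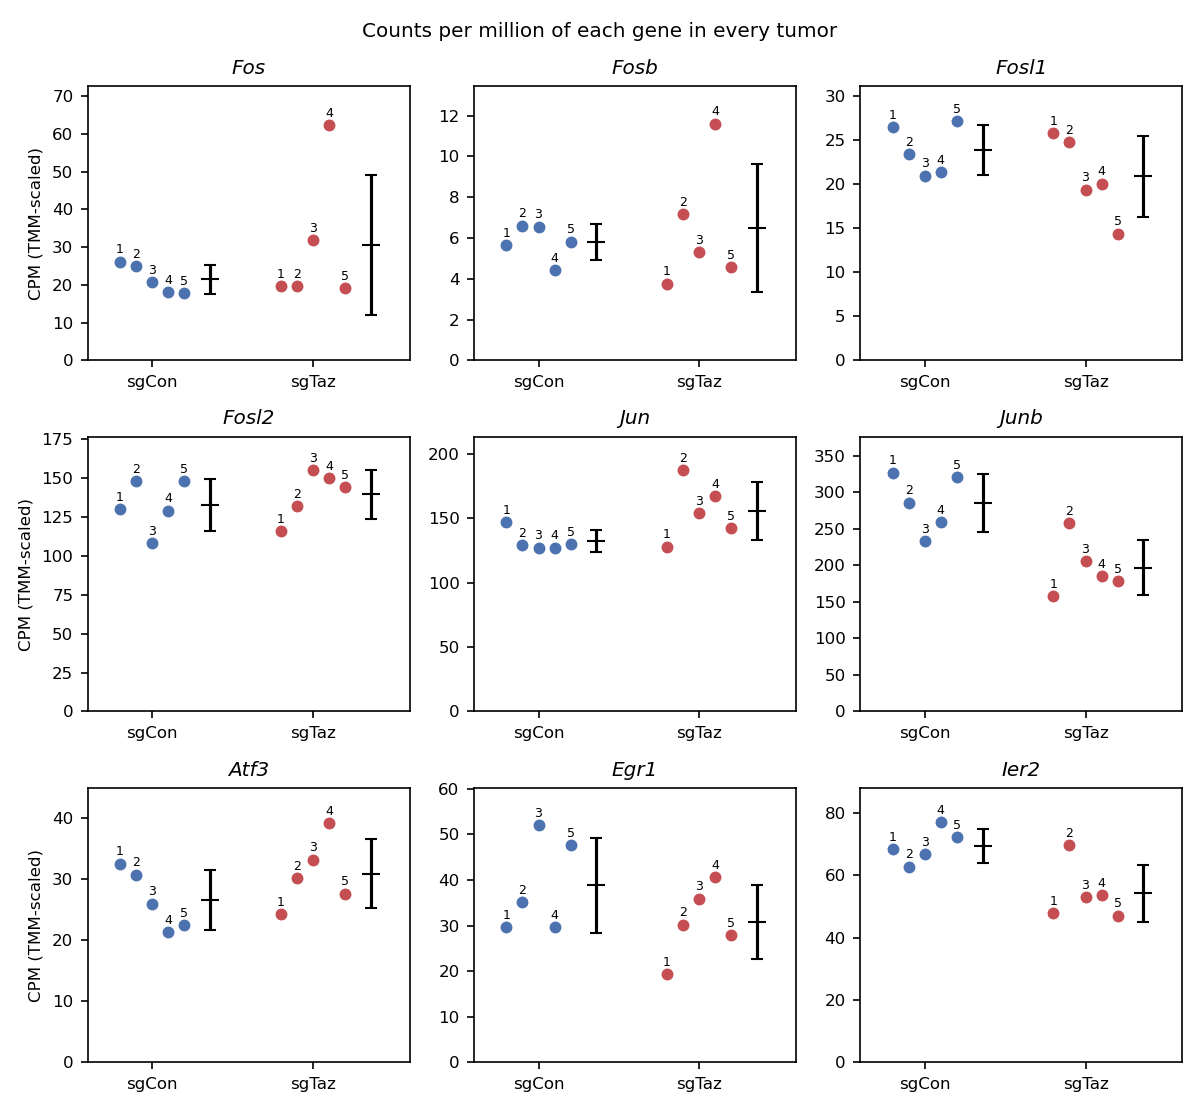
TMM-scaled CPM (vertical axis, from 0) of the 9 genes in each of the 5 sgCon (blue) and 5 sgTaz (red) tumors, each point a tumor with its number and each black bar the mean ± SD of 5 tumors. Junb spans 233 to 327 CPM in sgCon and 158 to 258 CPM in sgTaz tumors, Ier2 spans 62.8 to 77.0 and 47.1 to 69.6 CPM, and the high Fos and Fosb means of sgTaz come from tumor 4.

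The promoters of Junb, Jun, Fos and Atf3 are shown because the ratio of Junb to Jun separated the groups and the levels of Fos and Atf3 correlated from tumor to tumor. Each sequence is the 250 bases before the transcription start in RefSeq (GRCm38.p6), written 5′ to 3′ on the strand of the gene, with motif matches in capitals. Junb lies at chr8:84978749-84978998 and Jun at chr4:95052223-95052472, both on the minus strand. Fos lies at chr12:85473640-85473889 on the plus strand and Atf3 at chr1:191183334-191183583 on the minus strand.

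Junb: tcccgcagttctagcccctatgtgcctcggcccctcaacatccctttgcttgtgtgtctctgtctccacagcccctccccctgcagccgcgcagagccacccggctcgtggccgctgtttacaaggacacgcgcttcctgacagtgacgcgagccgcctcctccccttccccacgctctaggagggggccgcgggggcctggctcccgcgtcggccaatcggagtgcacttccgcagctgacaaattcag
Jun: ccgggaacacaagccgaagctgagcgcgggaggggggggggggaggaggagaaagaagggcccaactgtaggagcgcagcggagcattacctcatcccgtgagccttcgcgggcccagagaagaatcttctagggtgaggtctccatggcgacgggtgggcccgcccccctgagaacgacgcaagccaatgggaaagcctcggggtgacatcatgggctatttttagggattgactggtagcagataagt
Fos: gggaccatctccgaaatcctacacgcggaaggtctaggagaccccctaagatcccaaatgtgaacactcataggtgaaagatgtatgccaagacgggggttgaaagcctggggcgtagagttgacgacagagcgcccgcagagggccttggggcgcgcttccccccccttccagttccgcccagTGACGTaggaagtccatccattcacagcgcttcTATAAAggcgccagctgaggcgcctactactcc
Atf3: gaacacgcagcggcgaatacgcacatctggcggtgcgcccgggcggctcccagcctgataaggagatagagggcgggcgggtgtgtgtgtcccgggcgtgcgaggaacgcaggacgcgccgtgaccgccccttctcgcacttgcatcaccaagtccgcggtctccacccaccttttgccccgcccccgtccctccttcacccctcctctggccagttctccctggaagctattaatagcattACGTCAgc

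The promoters were searched on both strands for 6 motifs. They were the AP-1 site TGANTCA, the core TGACGT of the cAMP response element, the CArG box bound by serum response factor, the TEAD site CATTCC, the EGR core GTGGGCG and the TATA box TATAAA, and no matches overlapped. The Fos promoter held the cAMP response element core at -66 to -61 and a TATA box at -33 to -28 from the start, and the Atf3 promoter held the same core, on the opposite strand, at -8 to -3. These letters were not in the shown windows of Junb and Jun, nor in those of Fosb and Fosl2. Only the patterns named were searched, so variant sites of other letters or length were not counted. Of 32851 RefSeq promoters of the same length, 6.75% held the AP-1 site, 6.47% the cAMP response element core, 1.47% the CArG box, 12.6% the TEAD site, 7.02% the EGR core and 12.4% the TATA box.

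Among the FOS subunits, Fos, the partner of JUN proteins first known from the response to serum, measured 26.2, 24.9, 20.7, 18.1 and 17.8 CPM in sgCon tumors 1 to 5. In sgTaz tumors 1 to 5 it measured 19.7, 19.6, 31.9, 62.4 and 19.1 CPM. The groups overlapped, and sgTaz tumor 4 was higher than every other tumor. Its fold change on the log2 scale was 0.50 ± 0.32 (SE, edgeR adjusted p = 0.375), and without sgTaz tumor 4 it was 0.07, with group means of 21.5 ± 3.85 CPM (SD, n = 5) in sgCon and 22.6 ± 6.2 CPM (SD, n = 4) in sgTaz. Fosb, which gives a full and a truncated protein and is known from neurons and bone, was the lowest of the list, at 59 to 143 counts per tumor. It spanned 4.44 to 6.61 CPM in sgCon and 3.76 to 11.6 CPM in sgTaz tumors, again with tumor 4 highest, and its log2 fold change was 0.15 ± 0.28 (SE, edgeR adjusted p = 0.784), or -0.16 without that tumor.

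Fosl1 and Fosl2 encode FRA1 and FRA2, FOS proteins without the strong activation domain of FOS, and FRA1 is known from invasive breast tumor cells. Fosl1 measured 26.5, 23.4, 21.0, 21.4 and 27.2 CPM in sgCon and 25.8, 24.8, 19.4, 20.1 and 14.4 CPM in sgTaz tumors. Of the sgTaz tumors, 3 lay below the sgCon range and the other 2 were inside the sgCon range, and the log2 fold change was -0.19 ± 0.15 (SE, edgeR adjusted p = 0.488). Of its 2033 exon bases, 1163 are shared with Ccdc85b on the opposite strand, which stood at 63.0 ± 12.8 CPM in sgCon and 47.5 ± 4.96 CPM in sgTaz tumors (SD, n = 5 each). The methods do not state whether counting used the strand, so reads on the shared bases cannot be assigned to either gene with certainty. With the lymph node stroma level as a covariate the log2 fold change of Fosl1 was -0.58. Its edgeR p in that fit was 0.00726 unadjusted and 0.346 adjusted. Fosl2 was at 108 to 148 CPM in sgCon and 116 to 155 CPM in sgTaz tumors, and its log2 fold change was 0.07 ± 0.1 (SE, edgeR adjusted p = 0.731).

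Among the JUN subunits, Jun encodes c-JUN, the strongest activator of the family and the target of JNK. It measured 147, 129, 127, 127 and 130 CPM in sgCon tumors 1 to 5 and 128, 187, 154, 167 and 142 CPM in sgTaz tumors 1 to 5. In sgCon, 4 of the tumors lay within 127 to 130 CPM, 3 sgTaz tumors were above every sgCon tumor, and sgTaz tumor 1 was inside the sgCon range. The log2 fold change was 0.24 ± 0.1 (SE), with an edgeR adjusted p of 0.195 and an exact two-sided permutation p of 0.0714 (n = 5 each). With the epithelial level as a covariate it was 0.45, with an edgeR p of 0.000668 unadjusted and 0.35 adjusted. With the lymph node stroma level as a covariate it was 0.14, with an edgeR p of 0.331 unadjusted and 0.683 adjusted. Exons of Jun and of its antisense RNA Junos share 232 bases, and Junos stood at 2.0 to 6.26 CPM over the 10 tumors.

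Junb encodes JUNB, which activates transcription more weakly than c-JUN and can hold it back, and which is abundant in myeloid cells. It measured 327, 286, 233, 259 and 321 CPM in sgCon tumors 1 to 5. In sgTaz tumors 1 to 5 it measured 158, 258, 206, 185 and 178 CPM. The 5 sgCon tumors all exceeded 4 of the sgTaz tumors, and sgTaz tumor 2 was inside the sgCon range. The log2 fold change was -0.53 ± 0.14 (SE), a level 0.691 times that of sgCon, and the exact two-sided permutation p was 0.0159 (n = 5 each), while the smallest p that 5 against 5 tumors allow is 0.00794. The edgeR adjusted p was 0.096, the DESeq2 adjusted p was 0.0158 and the limma-voom adjusted p was 0.0218. Without sgTaz tumor 2 the log2 fold change was -0.65 and the edgeR adjusted p was 0.0498. With any other tumor left out, no edgeR adjusted p of Junb was below 0.05, and the highest was 0.233. Exons of Junb share 173 bases with Prdx2 on the opposite strand, which stood at 293 ± 66.6 CPM in sgCon and 275 ± 24.8 CPM in sgTaz tumors (SD, n = 5 each).

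Values of 3 other kinds were, like Junb, lower in sgTaz tumors when the groups were compared. They are not given as following Junb from tumor to tumor. The gene has 62.6% GC, and the 588 genes tested above 60% GC had a median log2 fold change of -0.10, with 63.9% of them lower in sgTaz, against a median of 0.062 for the 986 genes up to 40% GC. With offsets for GC content and length, Junb was at -0.40 (edgeR adjusted p = 0.165). Of the 10 epithelial tumor cell markers, all were lower in sgTaz, 5 of them at an unadjusted edgeR p below 0.05, with a median of -0.62, and with their level as a covariate Junb was at -0.21 (edgeR adjusted p = 0.433). Of the 9 neutrophil markers tested, all were lower and 5 were so at an unadjusted edgeR p below 0.05, their median was -1.14, and their summed level was 196 to 789 CPM in sgCon and 73.7 to 303 CPM in sgTaz tumors. Over all genes tested, 11.9% were lower at an unadjusted edgeR p below 0.05. With the lymph node stroma level as a covariate Junb was at -0.68 (edgeR adjusted p = 0.317). The part of GC content, tumor cells or neutrophils in the level of Junb was not tested beyond these values.

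The ratio of Junb to Jun was chosen for a closer look after the values were seen. Per kilobase of exon, Junb exceeded Jun 3.09, 3.08, 2.55, 2.83 and 3.42 times in sgCon tumors 1 to 5. In sgTaz tumors 1 to 5 the excess was 1.71, 1.91, 1.85, 1.53 and 1.74 times. The groups did not overlap, and every sgTaz tumor had less Junb per Jun than every sgCon tumor. The mean log2 ratio was 1.58 ± 0.16 (SD, n = 5) in sgCon and 0.80 ± 0.12 (SD, n = 5) in sgTaz, a difference of -0.77, given as a description without a test because the pair was picked for one gene being lower and the other higher. Singly, both genes overlapped between the groups. Of the 36 ratios between pairs of the 9 genes, 3 did not overlap between the groups, namely Junb to Jun, Ier2 to Jun and Junb to Atf3. That count takes both directions. The matching share over all pairs of genes was not computed, so the 3 are no result about the list. Of the other genes tested, taken as a ratio to Jun in the same way, 5.89% were lower in every sgTaz than in every sgCon tumor. Because both genes are read in the same tumor, library scaling cancels in the ratio. The difference was -0.72 with GC and length offsets, -0.65 with the epithelial level and -0.82 with the lymph node stroma level as a covariate. It stayed between -0.83 and -0.72 when any 1 tumor was left out. With the epithelial level as a covariate Jun was at 0.45 and Junb at -0.21, and with the lymph node stroma level they were at 0.14 and -0.68.

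The 9 genes were also compared from tumor to tumor within the groups. After the group means were taken off, log2 CPM of Junb and Jun correlated with r = 0.816 and rho = 0.879 over 10 tumors, with exact permutation p of 0.00833 and 0.00139 within groups, and r was 0.534 once the 2 farthest tumors from the median were left out. Of 36 pairs of the 9 genes, 28 correlated positively. Adjusted over the 36 pairs, the exact permutation p for Junb with Jun was 0.15 by Pearson and 0.05 by Spearman, and for Fos with Atf3, the 1 pair that passed by Pearson, it was 0.030 and 0.0975. The latter had r = 0.826 and rho = 0.794, with exact permutation p of 0.000833 and 0.00542, and r was 0.745 without the 2 farthest tumors. Tumor 2 was the highest of the sgTaz tumors in Junb, Jun and Ier2, and tumor 4 was the highest in Fos, Fosb, Atf3 and Egr1.

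As a share of the 6 AP-1 subunit transcripts analysed (Fos, Fosb, Fosl1, Fosl2, Jun and Junb, per kilobase of exon), Junb made up 58.8% to 64.2% in sgCon and 43.0% to 54.4% in sgTaz tumors. The share of Jun was 18.8% to 23.0% in sgCon and 27.2% to 29.1% in sgTaz tumors. Neither share overlapped between the groups, which restates the ratio. The 4 FOS genes together made up 17.0% to 18.9% in sgCon and 17.1% to 28.8% in sgTaz tumors, and Fos alone reached 14.2% in sgTaz tumor 4. The summed level of the 6 transcripts had a median of 203 CPM per kilobase in sgCon and 178 CPM per kilobase in sgTaz tumors, and its ranges overlapped.

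**Figure D2:**
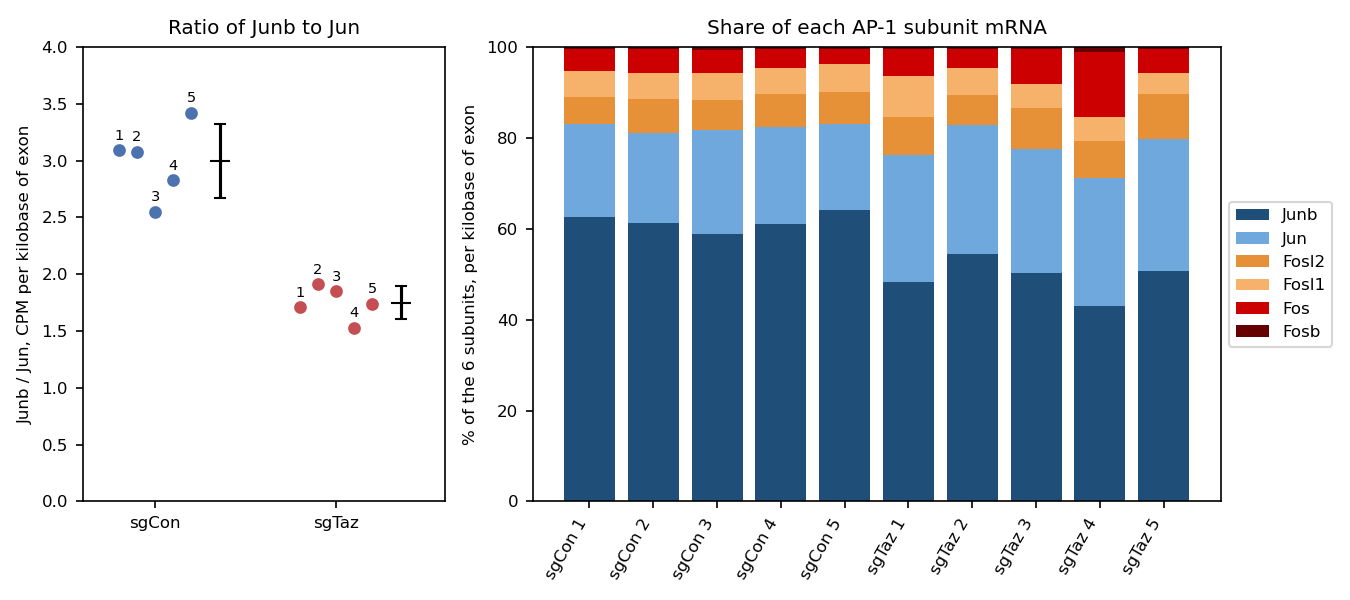
Left, the ratio of Junb to Jun in CPM per kilobase of exon (vertical axis, from 0) in 5 sgCon (blue) and 5 sgTaz (red) tumors, each point a tumor with its number and each bar the mean ± SD; sgCon tumors lie between 2.55 and 3.42 and sgTaz tumors between 1.53 and 1.91. Right, stacked bars of the percentage of each of the 6 subunit transcripts per kilobase in every tumor, in which the Junb share is 58.8% to 64.2% in sgCon and 43.0% to 54.4% in sgTaz tumors.

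Atf3, a stress-induced bZIP factor that often represses, measured 32.5, 30.7, 26, 21.3 and 22.5 CPM in sgCon and 24.3, 30.1, 33.2, 39.2 and 27.6 CPM in sgTaz tumors. Of the sgTaz tumors, 2 were above every sgCon tumor and the rest overlapped. Atf3 had a log2 fold change of 0.21 ± 0.15 (SE, edgeR adjusted p = 0.436), and it was 0.11 without sgTaz tumor 4.

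Egr1, a zinc finger factor induced by the ERK pathway, measured 29.6, 35.2, 52.1, 29.6 and 47.7 CPM in sgCon and 19.3, 30.2, 35.9, 40.6 and 27.9 CPM in sgTaz tumors. Of the sgTaz tumors, 2 lay below the sgCon range, and sgCon tumors 3 and 5 were the highest of all. For Egr1 the log2 fold change was -0.34 ± 0.22 (SE, edgeR adjusted p = 0.383), and it was -0.20 without sgCon tumor 3 and -0.08 with the lymph node stroma level as a covariate.

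Ier2, a short-lived nuclear protein of the early response, measured 68.3, 62.8, 66.8, 77.0 and 72.2 CPM in sgCon tumors 1 to 5 and 47.8, 69.6, 53.1, 53.7 and 47.1 CPM in sgTaz tumors 1 to 5. As with Junb, 4 of the sgTaz tumors lay below the sgCon range and tumor 2 lay inside it. The log2 fold change was -0.35 ± 0.11 (SE), with an edgeR adjusted p of 0.120, a DESeq2 adjusted p of 0.0755, a limma-voom adjusted p of 0.0307 and an exact two-sided permutation p of 0.0317 (n = 5 each). Without sgTaz tumor 2 it was -0.46 (edgeR adjusted p = 0.0498). With any other tumor left out, no edgeR adjusted p of Ier2 was below 0.05, and the highest was 0.26. The gene has 60.9% GC, and its log2 fold change was -0.18 with GC and length offsets, -0.18 with the epithelial level and -0.53 with the lymph node stroma level as a covariate.

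Ier2 (chr8:84661331-84662852) and Junb (chr8:84974484-84978718) lie on the same strand, 311631 bases apart in GRCm38. Of the 15 genes tested between them, 12 had a lower and 3 a higher level in sgTaz. Their median log2 fold change was -0.18, with a range of -0.81 to 0.22. Over all 14816 genes, 7855 had a lower level and the median was -0.019. The 15 genes had a median GC of 54.9%, and of all genes with 50% to 55% GC, 57.5% were lower. At an unadjusted edgeR p below 0.05, 1 of the 15 was lower and 1 higher, against 11.9% and 9.86% of all genes.

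**Figure D3:**
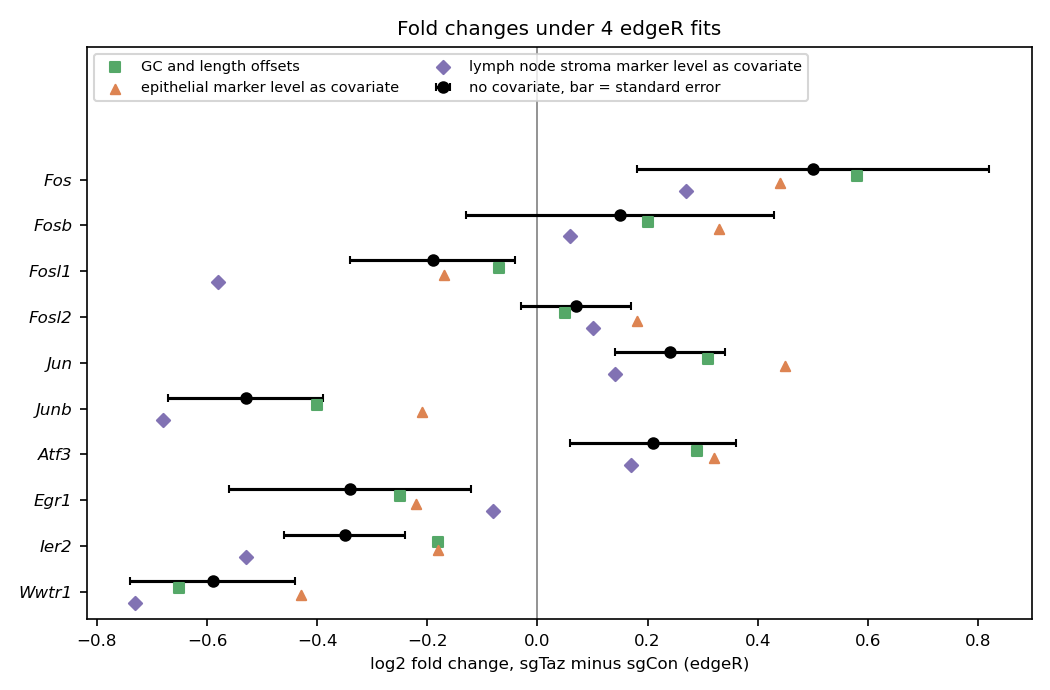
Log2 fold change, sgTaz minus sgCon (horizontal axis), of the 9 genes and Wwtr1 in 4 edgeR fits of 5 against 5 tumors: without covariate (black, bar = standard error), with GC and length offsets (green), and with the epithelial (orange) or lymph node stroma (purple) marker level as a covariate. Junb moves between -0.68 and -0.21, Ier2 between -0.53 and -0.18 and Jun between 0.14 and 0.45, each on 1 side of 0 in all 4 fits.

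Compared per kilobase of exon, Junb was the most abundant of the 9 genes analysed in both groups. Jund was not analysed and has no place in this order. Junb stood at 124 ± 17.4 in sgCon and 85.6 ± 16.6 CPM per kilobase in sgTaz tumors (SD, n = 5 each). Its range did not overlap that of the next gene. In sgCon tumors Ier2 followed at 45.6 and Jun at 41.3 CPM per kilobase, with overlapping ranges. In sgTaz tumors Jun came second at 48.8 and Ier2 was next at 35.7 CPM per kilobase, again with overlapping ranges. Below a gap came Fosl2, Atf3, Fosl1, Fos and Egr1, at means of 13.7 down to 8.66 in sgCon and 14.4 down to 6.87 CPM per kilobase in sgTaz tumors, where each neighbour overlapped the next, and Fos stood above Fosl1 in sgTaz tumors. Fosb was lowest, at 0.931 and 1.04 CPM per kilobase, and did not overlap Egr1.

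Of 23 other immediate early genes, 8 were lower and 0 higher in sgTaz at an unadjusted edgeR p below 0.05, against 11.9% and 9.86% of all genes, and 15 had a lower level, with a median log2 fold change of -0.20 against -0.019. DESeq2 called 6 lower (3.47% of all genes), limma-voom called 5 lower (5.8%), edgeR called none after adjustment, and 2 were fully lower without overlap (2.13%). Gadd45b, a stress-response adaptor of the MAP kinase kinase kinase MEKK4, stood at 22.5 ± 7.4 CPM in sgCon and 12.4 ± 2.59 CPM in sgTaz tumors (SD, n = 5 each). Its log2 fold change was -0.85 (edgeR adjusted p = 0.096, DESeq2 adjusted p = 0.0107). Ier5, a regulator of heat shock factor HSF1, was 90.6 to 130 CPM in sgCon and 70.5 to 87.9 CPM in sgTaz tumors, which did not overlap (log2 fold change -0.37, edgeR adjusted p = 0.101). Klf2, a factor of quiescent lymphocytes and endothelium, also did not overlap, at 38.3 to 141 and 24.8 to 34.2 CPM (log2 fold change -1.14, edgeR adjusted p = 0.113). Btg2, an antiproliferative gene, overlapped at 29.4 to 135 and 18.5 to 44.4 CPM (log2 fold change -1.23, edgeR adjusted p = 0.123).

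In sgCon tumor 3, 13 of these 23 genes were at the highest and 5 at the lowest level of the sgCon group, and of the 9 AP-1 and early factors 1 was at the highest and 4 were at the lowest level. This tumor held the most B cell RNA, 1020 CPM summed over 10 markers against 75.9 to 474 CPM in the other sgCon and 8.01 to 239 CPM in the sgTaz tumors. Its Klf2 level was 141 CPM, against 38.3 to 50.7 CPM in the other sgCon tumors. Without this tumor the same 8 of the 23 genes were lower and 0 were higher at an unadjusted edgeR p below 0.05, against 9.73% and 8.99% of all genes, the median was -0.11, and Klf2 and Btg2 were at -0.62 and -0.79. With the lymph node stroma level as a covariate 1 of 23 was lower and 0 higher, against 6.45% and 5.82% of all genes in that fit, and the median was -0.07. All 10 B cell markers were lower in sgTaz, with a median of -2.92 and 8 at an unadjusted edgeR p below 0.05, and of these markers Ms4a1, Fcer2a, Cr2 and Blk were at 0 in at least 1 tumor. The 10 T cell markers did not reach 0 in any tumor and summed to 146 to 1020 CPM in sgCon and 110 to 300 CPM in sgTaz tumors. All 10 T cell markers were lower as well, with a median of -1.67 and 9 at an unadjusted edgeR p below 0.05. Over all genes tested, 11.9% were lower by that rule. The part of lymphocytes in the early gene levels was not tested beyond these values.

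**Figure D4:**
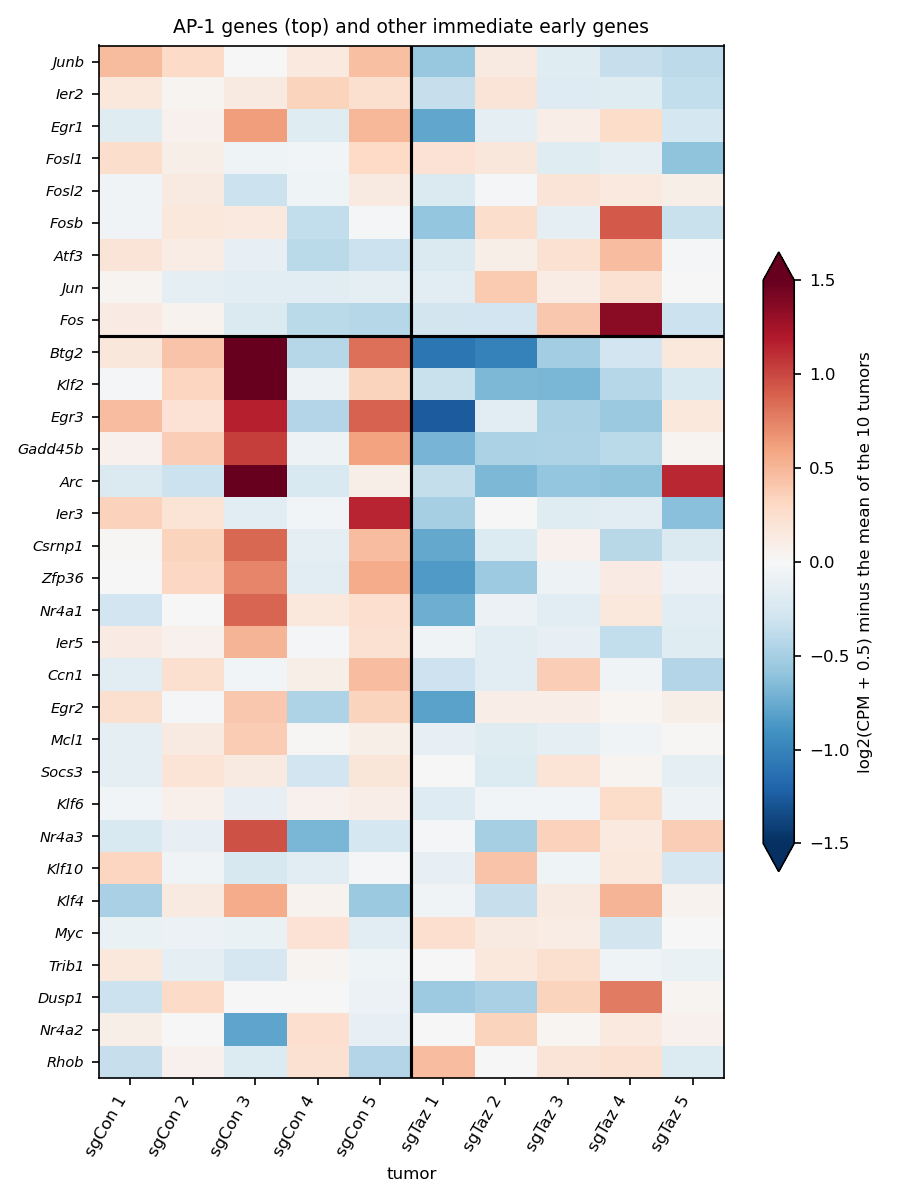
Log2(CPM + 0.5) of each gene (rows) in each tumor (columns) minus the mean of the 10 tumors, red above and blue below it, with the 9 AP-1 and early factors above the horizontal line and 23 other immediate early genes below it. The red column of sgCon tumor 3 in the lower block holds the highest sgCon value in 13 of 23 genes, and the darkest red cells of sgTaz tumor 4 in the upper block are Fos and Fosb.

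Among 14 other bZIP proteins that can pair with AP-1 subunits, 3 were lower and 2 higher at an unadjusted edgeR p below 0.05. By that rule 11.9% of all genes tested were lower and 9.86% higher. The median log2 fold change of the 14 was 0.07. DESeq2 called 0 of them lower and 1 higher, against 3.47% and 3.28% of all genes. Limma-voom called 1 lower and 1 higher, against 5.8% and 4.63%, and edgeR called none after adjustment. All 10 macrophage markers were higher in sgTaz, 5 at an unadjusted edgeR p below 0.05, with a median of 0.48 and a summed level of 801 to 1870 CPM in sgCon and 1610 to 2190 CPM in sgTaz tumors. Atf4, the factor of the integrated stress response, had a log2 fold change of -0.34 (edgeR adjusted p = 0.126, limma-voom adjusted p = 0.0340). Batf2, an interferon-induced bZIP factor, was at 0.38 and Maff, a small MAF protein, at -0.25, with edgeR adjusted p of 0.173 and 0.191.

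Of the 17 upstream kinases and factors tested, 3 were lower and 2 higher at an unadjusted edgeR p below 0.05, with a median of -0.05. By that rule 11.9% of all genes tested were lower and 9.86% higher. The ERK gene Mapk3 was at -0.07 and the JNK gene Mapk8 was at -0.02, with edgeR adjusted p of 0.735 and 0.905. Map2k7, a kinase that activates JNK, had a log2 fold change of -0.42 (edgeR adjusted p = 0.096, DESeq2 adjusted p = 0.0249). In the annotation it shares 1349 exon bases with Gm49320 on the same strand, so its count is uncertain. Of the cofactors of serum response factor, Mrtfa was at -0.51 and Mrtfb at 0.19, and Elk4, a partner of that factor at early gene promoters, was at -0.23, with edgeR adjusted p of 0.142, 0.2 and 0.152.

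Of 14 feedback inhibitors and turnover factors, 3 were lower and 0 higher at an unadjusted edgeR p below 0.05. By that rule 11.9% of all genes tested were lower and 9.86% higher. DESeq2 and limma-voom each called 3 of the 14 lower, against 3.47% and 5.8% of all genes. The median log2 fold change was 0.03. The 3 lower genes are phosphatases of MAP kinases. Dusp10, which acts on p38 and JNK, was 16.9 to 41.4 CPM in sgCon and 14.1 to 15.1 CPM in sgTaz tumors (log2 fold change -0.79, edgeR adjusted p = 0.101). Dusp5, which acts on nuclear ERK, was 15.7 to 25.3 and 7.32 to 15 CPM (log2 fold change -0.67, edgeR adjusted p = 0.111), and its exons share 547 bases with an antisense RNA. Neither gene overlapped between the groups, and 2.13% of all genes tested were fully lower in this way. Dusp2, a phosphatase of activated lymphocytes and myeloid cells, was at -1.30 (edgeR adjusted p = 0.114), and at -0.80 without sgCon tumor 3, where it reached 69.1 CPM. Spry1, an inhibitor of receptor tyrosine kinase signals, was at 0.49 (edgeR adjusted p = 0.232, limma-voom adjusted p = 0.0473). With the lymph node stroma level as a covariate 0 of the 14 were lower and 0 higher at an unadjusted edgeR p below 0.05. In that fit 6.45% of all genes were lower and 5.82% higher.

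Of 19 genes known as targets of AP-1, 6 were lower and 1 higher at an unadjusted edgeR p below 0.05. By that rule 11.9% of all genes tested were lower and 9.86% higher. A lower level was seen in 16 of the 19, against 7855 of all 14816 genes, and the median log2 fold change was -0.28. DESeq2 called 2 lower (3.47% of all genes), limma-voom called 5 lower (5.8%) and edgeR called none after adjustment. Timp1, an inhibitor of matrix metalloproteinases, was 86.7 to 214 CPM in sgCon and 68.9 to 112 CPM in sgTaz tumors (log2 fold change -0.64, edgeR adjusted p = 0.129, DESeq2 adjusted p = 0.0481). Hmox1, the heme-degrading enzyme, was at -0.40 and Mmp3, the metalloproteinase stromelysin, at -0.98, with edgeR adjusted p of 0.172 and 0.195. Their summed level overlapped between the groups, at 2410 to 4010 CPM in sgCon and 2410 to 3980 CPM in sgTaz tumors. With the epithelial level as a covariate 0 of the 19 were lower and 3 higher at an unadjusted edgeR p below 0.05, against 7.03% and 5.74% of all genes in that fit, and the median was 0.12.

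The genes whose variation within the groups was most like that of each factor were taken as a description. Pearson's r of log2 CPM was used over the 10 tumors after the group means were removed, among genes of at least 1 CPM. Each r is the highest of many genes over only 10 tumors, can be high by this choice alone, and was not tested. For Junb the genes were Mcpt8, a basophil protease (r = 0.977), Gcnt2 (0.976) and 2610307P16Rik (0.968). Mcpt8 had a log2 fold change of -1.07. For Jun they were Pappa (0.940), Clic1 (0.938) and Ddx50 (0.933). For Fos they were Kat6b (0.976), Ppm1a (0.918) and Erbin (0.903), for Fosb Hcfc2 (0.929), Rnd1 (0.917) and Kbtbd3 (0.885), and for Atf3 Mon2 (0.908), Lrrn4cl (0.902) and Gm38057 (0.902). For Fosl1 they included Fam76b (0.945) and Hyls1 (0.917), and for Fosl2 Hdc, the histidine decarboxylase of mast cells, basophils and neutrophils (0.953), Lama1 (0.941) and Asprv1 (0.938). For Ier2 they were Stx18 (0.943), Nptxr (0.941) and Nek8 (0.939). For Egr1 they were Tbx3 (0.925), Mterf2 (0.920) and Zfp36 (0.916), the last an immediate early gene that degrades AU-rich mRNAs.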

How the data were processed

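RNA of 10 whole tumors was sequenced by the authors, and reads were mapped to mm10 with STAR and counted with featureCounts of Subread. CASAVA, STAR, Subread and GRCm38 are named in the submitters' processing notes, without versions. The deposited values are counts of the authors, whole numbers per gene, not normalized. The strand setting is not given in the sources used here, and 5 other columns of the table were not used.

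Identifiers were matched to GENCODE M21 (17860 of 17864 found). The main test was the quasi-likelihood test of edgeR 4.0.16 (TMM, filterByExpr, Benjamini-Hochberg threshold 0.05), with DESeq2 1.42.0 and limma 3.58.1 beside it (R 4.3.3), and tables were made in Python 3.11.15. The fits were tested on simulated data. Log2 CPM for permutation tests and correlations used a prior count of 2. At this depth, 3 counts are 0.15 to 0.243 CPM, for counting error only. CPM per kilobase is CPM over the merged exon length. Alternatives were other normalizations, filters and tools, the replicate block, GC and length offsets (loess, span 0.3), marker levels as covariates and each tumor left out.

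The 10 genes and the lists were chosen with earlier results of these data known. Named genes were the members, Wwtr1, the 4 genes of each pathway list with the lowest unadjusted p and the 3 genes most like each member, of which some are not reported here. Mapk3, Mapk8, the overlapping genes and the lymphocyte markers were named after their values were seen. Promoters of 6 of the 9 genes were searched.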

Additional observations from a re-analysis of the deposited data

Results flagged for a closer look

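Among 58 groups of 5 tumors examined for a tumor that stood apart from the other 4, 4 had one. Chance gives about 1 in 20 such groups, or 2.9 of 58. Jun in sgCon tumor 1 was at 7.2 log2 CPM, against 6.98 to 7.02 in the other sgCon tumors. Klf2 in sgCon tumor 3 was at 7.14, against 5.26 to 5.67. Mrtfa in sgTaz tumor 5 was at 5.5, against 5.1 to 5.21 in the other sgTaz tumors. In sgTaz tumor 1, Dusp5 was at 2.9, against 3.73 to 3.92 log2 CPM. The same tumor 1 was the lowest of the sgTaz group in 6 of the 9 AP-1 and early factors. These gaps were not tested further.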

How the results depend on the processing

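Over the alternatives run, the 9 AP-1 and early factors kept their direction, except that Fosb went from 0.15 to -0.16 without sgTaz tumor 4, within a range of -0.16 to 0.3 with a tumor left out. The count of the 9 that passed was 0 with edgeR, 1 with DESeq2, 2 with limma-voom and 0 to 2 with a tumor left out, where sgTaz tumor 2 gave the 2. At an unadjusted p below 0.05, the lower genes were 2, but 3 with limma-voom and with the lymph node stroma covariate, 1 with GC and length offsets, 1 with these offsets and the replicate block, and 0 with the epithelial covariate, and with a tumor left out they were 2 in each fit. The higher genes were 1, but 0 with the replicate block, 0 with the lymph node stroma covariate and 0 to 1 with a tumor left out. The calls over all genes were 1 higher and 0 lower. They were 527 and 558 with DESeq2, 686 and 860 with limma-voom, 4 and 1 with at least 10 counts in every tumor, and 0 and 0 without a filter, with GC and length offsets, with these and the replicate block, and with either covariate, where 1404 and 1676, 1110 and 1337, and for the covariates 850 and 1041 (epithelial) and 863 and 956 (lymph node stroma) genes were higher and lower at an unadjusted p below 0.05, and 1759 and 1851 without a filter. With a tumor left out they were 0 to 42 higher and 0 to 130 lower (42 and 130 without sgTaz tumor 5, 40 and 35 without sgTaz tumor 2, 3 and 2 without sgCon tumor 3, and 4 and 1 without sgCon tumor 4). The cause of these differences was not tested. Mapping, strand setting and the host strain were not varied.

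Deviations from the group means correlated between same-numbered tumors 1 to 5 with r of -0.15, -0.243, -0.049, 0.093 and 0.221. The highest r of each sgCon tumor with an sgTaz tumor of another number was 0.261, 0.259, 0.42, 0.393 and 0.117. Only number 5 correlated most with its own number. The methods give no pairing, and these values cannot show whether the numbers mark pairs. With the replicate block edgeR called 0 genes higher and 0 lower, with 1064 and 1398 at an unadjusted p below 0.05, and Junb was at -0.54 (edgeR adjusted p = 0.175).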

Other observations

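Of the genes of TAZ, YAP and the TEAD factors other than Wwtr1, Yap1 was at 121 to 190 CPM in sgCon and 165 to 216 CPM in sgTaz tumors, with a log2 fold change of 0.30 (edgeR adjusted p = 0.184). Tead1, a factor through which TAZ and YAP bind DNA, was at 116 to 182 and 173 to 239 CPM, with 0.49 (edgeR adjusted p = 0.096), and 4 of the 5 sgTaz tumors were above every sgCon tumor. Tead2, Tead3 and Tead4 were at 0.19, -0.21 and 0.10, with edgeR adjusted p of 0.490 to 0.759. These genes were named after their values were seen. Heat shock genes, which also rise during tissue handling and stress, summed to 2360 to 3910 CPM in sgCon and 2820 to 3250 CPM in sgTaz tumors, and 0 of the 7 were lower or higher at an unadjusted edgeR p below 0.05. Endothelial markers (0 of 8) gave the same count, with a median log2 fold change of 0.10. Of 8 fibroblast markers, 2 were higher and 0 lower, and 1 of 6 adipocyte markers tested was higher. None of the 3 skeletal muscle and 4 red blood cell markers tested passed in either direction. By the same rule 11.9% of all genes tested were lower and 9.86% higher.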
